A study of Mus musculus with 9 samples.

Results

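The genes described here encode proteins of the mitochondrial ribosome in mouse oocytes. They are the genes whose symbol starts with Mrpl or Mrps followed by a number, without entries marked as pseudogenes. This rule was set with earlier results of these data known. No test of the set was therefore made, and its shares and medians beside those of all genes are descriptions. The rule found 78 of the 26358 genes in the table, and all 78 passed the filter on low counts that left 17545 genes for testing. Of the 78, 51 belong to the large subunit, where the products of Mrps18a and Mrps30 also sit, and 26 to the small subunit. Mrps36 fits the naming rule, but its product is an adaptor of the oxoglutarate dehydrogenase complex and not a ribosomal protein. Poly(A) RNA was sequenced in 9 libraries, 3 for each of 3 groups. In the cryopreservation-2 group, oocytes were frozen in a straw with ethylene glycol at 17.5%, trehalose at 1 M and nanoparticles named PVA/Fe3O4/GO. The cryopreservation-1 group was frozen on cryotops, thin plastic strips that hold a minimal volume, with ethylene glycol and DMSO at 15% each and sucrose at 0.5 M. Fresh oocytes were not frozen. No genotype, strain, age, meiotic stage or number of oocytes per library is given in the labels, and no time between warming and lysis. Since the freezing methods differ in carrier, solutes and nanoparticles at once, each comparison is between whole protocols.

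Mitochondria carry their own ribosome, which translates the few proteins that the mitochondrial genome encodes, all of them subunits of the respiratory chain and ATP synthase. Its RNAs are made inside the organelle, but every one of its proteins is encoded in the nucleus, made in the cytosol and imported. Many of these proteins have a counterpart in the bacterial ribosome, and the others are specific to mitochondria. A grown oocyte holds a very large number of mitochondria that it passes to the embryo, and it makes little new RNA, so its messages are largely those stored during growth.

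The libraries held 49337232 to 51369012 counts in cryopreservation-2, 64276885 to 80877288 in cryopreservation-1 and 73899130 to 80100460 in fresh. A set of 12 oocyte markers that includes Gdf9, Bmp15 and Zp3 took 1.48 to 2.23% of the counts in cryopreservation-2, 1.47 to 2.02% in cryopreservation-1 and 1.52 to 2.08% in fresh, and none of them was called in any comparison. Their median log2 fold change was 0.50 in cryopreservation-2 against fresh, with 9 of 12 positive, and 0.36 against cryopreservation-1, with 10 of 12 positive. In cryopreservation-1 against fresh it was -0.06, with 5 of 12 positive. Cumulus and granulosa cell markers took 0.112 to 0.175%, 0.101 to 0.125% and 0.0942 to 0.124% of the counts in the same order of groups, mostly through Serpine2. Of the 13 markers of that list, 8 had values, 6 were tested and none was called, with a median log2 fold change of -0.77 in cryopreservation-2 against fresh and 2 of 6 positive. The other 5, Foxl2, Amh, Amhr2, Inha and Tnfaip6, were not analysed here. In raw counts, Cyp19a1 had 1671 to 3757 in cryopreservation-2, 3813 to 4572 in cryopreservation-1 and 4370 to 5264 in fresh. These are not scaled to library size, and the cryopreservation-2 libraries were smaller, so they do not compare levels between groups. Inhbb was at 0 counts in every library but fresh replicate 1, which had 11. Immune and blood markers took at most 0.00146% of any library. Stromal and endothelial markers took 0.0113 to 0.0200%, 0.00964 to 0.0173% and 0.00977 to 0.0166%, and of 4 tested Myh11, a smooth muscle myosin, was higher in cryopreservation-2 relative to fresh (log2 fold change 0.88, SE 0.21, edgeR adjusted p = 0.0404). The 4 tested stromal and endothelial markers had a median log2 fold change of 0.40 in cryopreservation-2 against fresh, with 2 positive. Against cryopreservation-1 their median was -0.69, with 1 positive. The part of all these markers and of the smaller cryopreservation-2 libraries in the results below was not tested. In bulk samples fewer cells of a type and less RNA per cell cannot be told apart. Whether the 3 libraries of a group were made from separate animals or pools is not given in the labels, and p-values therefore measure the spread between these libraries, which may be technical.

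Levels of the 78 genes spanned several orders of magnitude in each group. By mean deposited FPKM (fragments scaled to gene length and library size, a level per length), the highest in fresh oocytes were Mrpl18, Mrpl9, Mrpl24, Mrpl45 and Mrps36. Mrpl18, the counterpart of bacterial L18, averaged 113 ± 20.4 FPKM in cryopreservation-2, 93.0 ± 16.9 in cryopreservation-1 and 90.2 ± 22.9 in fresh oocytes (SD, n = 3 each). Mrpl9, the counterpart of bacterial L9, averaged 210 ± 56.2 FPKM in cryopreservation-2, 98.6 ± 6.69 in cryopreservation-1 and 65.3 ± 20.1 in fresh. Ranked within a group, Mrpl9 was thus first and Mrpl18 second in both frozen groups, and the reverse held in fresh. Their ranges overlapped in fresh and also in cryopreservation-1. There Mrpl18 had 100, 105 and 73.6 FPKM and Mrpl9 had 91.2, 100 and 104. Scaled instead to the longest annotated protein-coding transcript, Mrpl9 ranked first and Mrpl18 second in fresh oocytes too. The order of the other members was largely kept. Across the 78 genes, Spearman's rho of the mean FPKM was 0.91 between cryopreservation-2 and fresh and 0.98 between cryopreservation-1 and fresh, given as a description since genes of 1 set of libraries are not independent.

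At least 10 FPKM was reached by 23, 25 and 24 members in the cryopreservation-2 libraries, by 18, 19 and 17 in the cryopreservation-1 libraries and by 16, 18 and 15 in the fresh libraries. Every cryopreservation-2 library therefore had more members above that level than any other library. Members at 0 counts were 0, 0 and 1 in cryopreservation-2, 1, 0 and 0 in cryopreservation-1 and 0, 1 and 3 in fresh. The deposited FPKM divides by a length proportional to all annotated exons of a gene laid together. Estimated from the counts, the FPKM and the library totals, that length is known only up to a factor. For Mrpl52 the estimate was 1602 bases, against 1109 bases of annotated exons. For 11 members, among them Mrpl23, Mrps22 and Mrpl33, the estimate was over 3 times the longest protein-coding transcript. Ranks of these genes therefore depend on the length used.

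**Figure D1:**
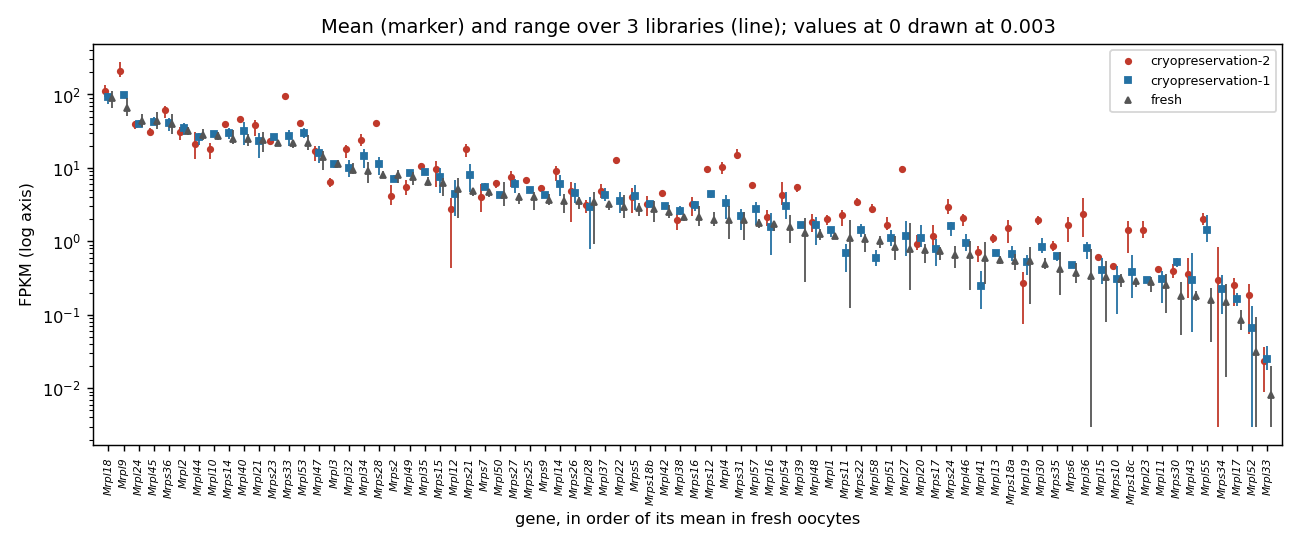
Deposited FPKM (vertical log axis) of each of the 78 genes (horizontal axis, ordered by the mean in fresh oocytes), with the mean of 3 libraries as a marker and their range as a line, for cryopreservation-2 (red circles), cryopreservation-1 (blue squares) and fresh (grey triangles). The highest points are Mrpl9 at 210 FPKM in cryopreservation-2 and Mrpl18 at 113, and red circles stand apart from the other groups for genes such as Mrps33, Mrps28, Mrps31 and Mrpl27.

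The 78 genes together took 0.285, 0.288 and 0.313% of all counts in the cryopreservation-2 libraries, 0.192, 0.212 and 0.166% in the cryopreservation-1 libraries and 0.160, 0.189 and 0.154% in the fresh libraries. Every cryopreservation-2 library was above all 6 others, and the ranges of cryopreservation-1 and fresh overlapped. A large part of this sum was a single gene, since Mrpl9 alone supplied 19.0 to 30.8% of the members' counts in cryopreservation-2, 14.1 to 18.4% in cryopreservation-1 and 9.0 to 17.5% in fresh. Without Mrpl9 the share was 0.198, 0.232 and 0.253% in cryopreservation-2, 0.165, 0.182 and 0.135% in cryopreservation-1 and 0.145, 0.172 and 0.127% in fresh, with cryopreservation-2 still above all other libraries. The large-subunit genes averaged 0.206 ± 0.00775% in cryopreservation-2, 0.139 ± 0.0149% in cryopreservation-1 and 0.124 ± 0.0132% in fresh oocytes (SD, n = 3 each). For the small subunit the means were 0.0799 ± 0.00755%, 0.0456 ± 0.00716% and 0.0376 ± 0.00379% in the same order of groups. No test was made of these sums.

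Against fresh oocytes, 16 mitoribosomal genes rose and 1, Mrpl3, fell in cryopreservation-2 oocytes. The risen genes came from both subunits and included the small-subunit genes Mrps33, Mrps28, Mrps31 and Mrps12 and the large-subunit genes Mrpl9, Mrpl4, Mrpl22 and Mrpl27. Mrps33 was 3.98-fold, Mrps28 4.63-fold and Mrps31 7.12-fold higher in cryopreservation-2. These 17 calls are 21.8% of the members, beside 5.38% of all genes tested. Called higher were 20.5% of the members, beside 3.18% of all genes, and called lower 1.28%, beside 2.2% of all genes. Calls rest on edgeR's quasi-likelihood test with Benjamini-Hochberg adjustment over 17545 genes at an adjusted p under 0.05.

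The shift was not limited to called genes. The median log2 fold change was 0.76 over the 78 members and -0.06 over all genes tested, and 64 members (82.1%) had a positive value, against 47.6% of all genes. In 39 members (50%) all 3 cryopreservation-2 libraries were above all 3 fresh libraries, against 15.1% of all genes, and in 4 members (5.13%) all were below, against 12.4%. An unadjusted p under 0.05 was found for 37 members (47.4%), against 21.8% of all genes. The large subunit had 9 genes higher and 1 lower of 51, with a median of 0.76, and the small subunit 7 higher and none lower of 26, with a median of 0.71. Members with a bacterial counterpart had a median of 0.69 in the large and 0.53 in the small subunit, and mitochondria-specific ones 0.76 and 0.80. By mean FPKM over all libraries, the 26 lowest, 26 middle and 26 highest members had medians of 0.92, 0.53 and 0.50.

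How many members passed the threshold depended on single libraries. Left out in turn, cryopreservation-2 replicate 2, cryopreservation-2 replicate 3 and fresh replicate 1 each left 6 members called, and fresh replicate 3 left 5. Calls over all genes fell as well, to 365, 282, 398 and 231 in the same 4 fits, against 944 with all libraries. Leaving out any of the other 5 libraries left 13 to 16 members and 491 to 786 genes in all. Mrps33, Mrps28, Mrps31, Mrps12 and Mrpl9 were called in all 9 of these fits. The other 12 were lost in at least 1 of them, at adjusted p-values of 0.0507 to 0.145. When the library with the most genes at 0 counts was left out of each group, 4 members remained called, Mrps33, Mrps28, Mrps31 and Mrpl9, among 194 genes, a choice made after seeing the data.

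**Figure D2:**
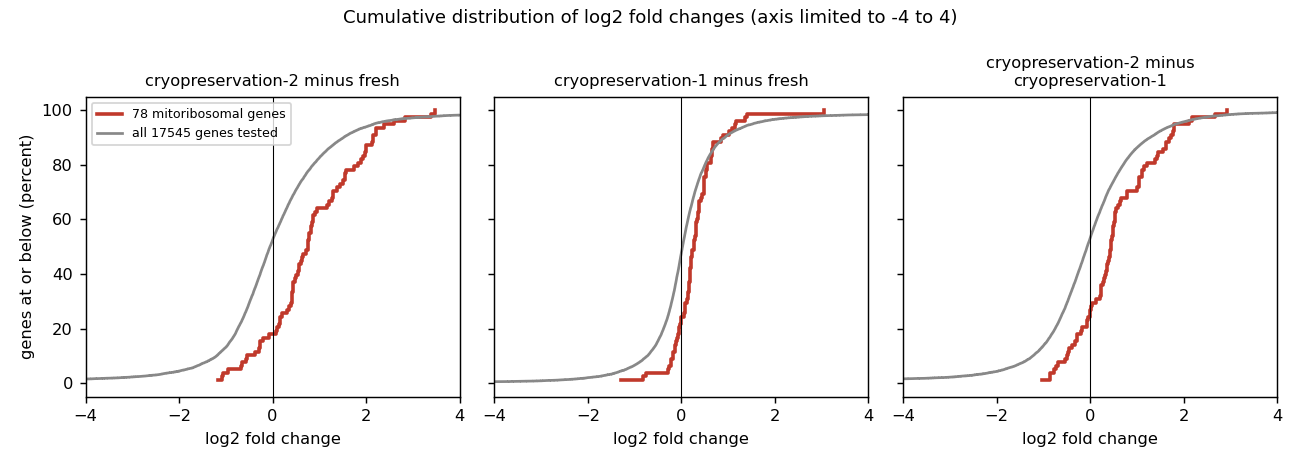
Cumulative percentage of genes (vertical axis) at or below each log2 fold change (horizontal axis, limited to -4 to 4) for the 78 members (red) and all 17545 genes tested (grey) in the 3 comparisons. In cryopreservation-2 minus fresh the red line lies to the right of the grey one, with medians of 0.76 and -0.06, and in cryopreservation-1 minus fresh the medians are 0.27 and 0.02.

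Promoter sequences were read from RefSeq (build GRCm38.p6, 250 bases before to 50 after the annotated start) for 69 of the 78 genes. Of the 3 members with the smallest p, Mrps33 and Mrps31 had an entry and Mrps28 had none. Shown are the promoters of Mrps33 and Mrps31, and of Mrpl3, which fell. They are given 5′ to 3′ on the strand of the gene. Mrps33 is at chr6:39810887-39811186 on the minus strand, Mrps31 at chr8:22411090-22411389 on the plus strand and Mrpl3 at chr9:105053018-105053317 on the plus strand. Capitals mark matches on either strand to 5 motifs known from promoters of nuclear genes for mitochondrial proteins or from promoters at large, namely NRF1 (GCGC and TGCGC with 1 base of any kind between them), ETS factors such as GABP (CCGGAAG), YY1 (ATGGCGG), the GC box (GGGCGG) and the CCAAT box (CCAAT).
Mrps33: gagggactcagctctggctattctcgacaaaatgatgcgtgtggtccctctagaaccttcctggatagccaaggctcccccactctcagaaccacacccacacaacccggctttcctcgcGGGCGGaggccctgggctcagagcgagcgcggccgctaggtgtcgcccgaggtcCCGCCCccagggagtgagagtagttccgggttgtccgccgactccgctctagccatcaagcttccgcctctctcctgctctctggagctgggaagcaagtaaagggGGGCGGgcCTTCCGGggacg
Mrps31: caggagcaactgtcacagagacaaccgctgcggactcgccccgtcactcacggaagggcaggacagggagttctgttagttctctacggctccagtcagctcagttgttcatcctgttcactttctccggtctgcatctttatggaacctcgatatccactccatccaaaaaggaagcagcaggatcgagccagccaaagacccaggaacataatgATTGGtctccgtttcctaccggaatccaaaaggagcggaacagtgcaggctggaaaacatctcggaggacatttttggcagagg
Mrpl3: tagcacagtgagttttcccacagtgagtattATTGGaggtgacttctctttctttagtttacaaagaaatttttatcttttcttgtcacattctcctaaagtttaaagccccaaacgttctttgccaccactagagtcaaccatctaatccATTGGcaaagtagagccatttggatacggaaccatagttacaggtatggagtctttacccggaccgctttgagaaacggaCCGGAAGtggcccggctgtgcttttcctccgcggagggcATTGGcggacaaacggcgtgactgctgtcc
The Mrps33 window holds 1 ETS match and 3 GC boxes, that of Mrps31 holds 1 CCAAT box, and that of Mrpl3 holds 1 ETS match and 3 CCAAT boxes. Mrps33 and Mrps31, both higher in cryopreservation-2, share none of these motifs, while Mrps33 and Mrpl3, which moved in opposite directions, both hold an ETS match. These 3 windows were chosen by p and direction, and a relation of motifs to the changes was not tested.

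Over the 69 promoters the ETS letters were found in 25 (36.2%), beside 9.12% of all 27025 promoters in the table and 16.4% of the 11616 that belong to genes tested. The NRF1 letters were in 13 (18.8%), beside 4.78% and 9.5%, and the YY1 letters also in 13 (18.8%), beside 4.19% and 7.41%. A GC box was in 34 (49.3%), beside 35.9% and 57.5%, and a CCAAT box in 27 (39.1%), beside 37.9% and 39.3%. Among the 16 members called higher in cryopreservation-2, 14 had a promoter entry, of which 8 held the ETS letters, 7 a GC box, 4 the NRF1 letters, 3 the YY1 letters and 2 a CCAAT box. Among the other 55 members with an entry, 17 held the ETS letters, 27 a GC box, 9 the NRF1 letters, 10 the YY1 letters and 25 a CCAAT box. As shares, these are 57.1 against 30.9% for ETS, 50 against 49.1% for the GC box, 28.6 against 16.4% for NRF1, 21.4 against 18.2% for YY1 and 14.3 against 45.5% for the CCAAT box. The TATA box letters (TATAAA), not marked above, were in 4 of the 69 (5.8%), beside 14.2% of all promoters and 8.44% of those of genes tested, with 1 of the 14 and 3 of the 55. These counts describe letters in a window and were not tested, and a match is not a site shown to be bound.

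Among the genes that rose in the small subunit, Mrps33 encodes a protein specific to mitochondria. Its level in CPM (counts scaled to library size with TMM factors, the unit of the levels that follow) was 176, 168 and 176 in cryopreservation-2, 56.4, 62.5 and 37.2 in cryopreservation-1 and 43.1, 50.1 and 37.2 in fresh. All cryopreservation-2 libraries were above all others, which overlapped with each other. The log2 fold change against fresh was 1.99 (SE 0.23, edgeR adjusted p = 0.00482) and against cryopreservation-1 1.73 (SE 0.23, adjusted p = 0.00983). Mrps28, the counterpart of bacterial S1, had 38.2, 35.7 and 31.9 CPM in cryopreservation-2, 12.6, 10.9 and 7.13 in cryopreservation-1 and 6.38, 9.19 and 7.26 in fresh. Its cryopreservation-2 values did not overlap with either group, with log2 fold changes of 2.21 against fresh (SE 0.28, adjusted p = 0.00604) and 1.79 against cryopreservation-1 (SE 0.28, adjusted p = 0.0138). Mrps31, again specific to mitochondria, had 53.9, 46.2 and 61.8 CPM in cryopreservation-2, 9.5, 10.5 and 5.24 in cryopreservation-1 and 9.27, 9.35 and 4.12 in fresh. It showed the same pattern with a larger step, 2.83 against fresh (SE 0.38, adjusted p = 0.00611) and 2.68 against cryopreservation-1 (SE 0.38, adjusted p = 0.0121). None of the 3 genes has exons that overlap another gene in GENCODE annotation of the same build.

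Mrps12, the counterpart of bacterial S12 at the decoding centre, had 12.4, 10.7 and 9.27 CPM in cryopreservation-2, 4.60, 5.73 and 5.45 in cryopreservation-1 and 2.12, 3.34 and 1.97 in fresh. Here the 3 groups lay apart from each other, with cryopreservation-1 in the middle. Its log2 fold change was 2.13 against fresh (SE 0.32, edgeR adjusted p = 0.00916) and 1.04 against cryopreservation-1, which did not pass the test (adjusted p = 0.0992). Mrps24, the counterpart of bacterial S3, had 4.02, 4.36 and 5.85 CPM in cryopreservation-2, 3.12, 3.08 and 2.0 in cryopreservation-1 and 0.744, 1.67 and 1.21 in fresh. Its groups were likewise ordered without overlap, and its log2 fold change against fresh was 1.97 (SE 0.44, adjusted p = 0.0319). Mrps24 shares 226 exon bases with Urgcp on the same strand, so reads there could belong to either gene. Mrps21, the counterpart of bacterial S21, had 12.1, 17.0 and 14.7 CPM in cryopreservation-2, 6.83, 9.66 and 3.95 in cryopreservation-1 and 3.50, 4.98 and 4.56 in fresh (log2 fold change against fresh 1.75, SE 0.36, adjusted p = 0.0241). Mrps22, specific to mitochondria and linked in humans to mitochondrial disease and ovarian insufficiency, had 13.9, 14.6 and 16.3 CPM in cryopreservation-2, 5.22, 7.84 and 6.37 in cryopreservation-1 and 5.45, 6.37 and 3.44 in fresh (1.55, SE 0.31, adjusted p = 0.0225). For both, cryopreservation-2 lay above all other libraries, and cryopreservation-1 and fresh overlapped.

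In the large subunit, Mrpl4 and Mrpl22 are counterparts of the bacterial proteins that line the exit tunnel for the new peptide, and Mrpl23 of one at its mouth. Mrpl4 had 25.2, 34.2 and 28.0 CPM in cryopreservation-2, 10.7, 13.1 and 5.87 in cryopreservation-1 and 3.19, 10.3 and 5.46 in fresh, a log2 fold change of 2.21 against fresh (SE 0.44, edgeR adjusted p = 0.0233). Mrpl22 had 12.8, 14.4 and 13.7 CPM in cryopreservation-2, 3.89, 5.34 and 2.69 in cryopreservation-1 and 2.35, 5.34 and 2.98 in fresh (1.94 against fresh, SE 0.38, adjusted p = 0.0225). Mrpl23 had 6.38, 9.90 and 6.30 CPM in cryopreservation-2, 1.67, 1.73 and 1.60 in cryopreservation-1 and 1.77, 2.07 and 1.21 in fresh (2.16 against fresh, SE 0.37, adjusted p = 0.0136). In all 3 genes the cryopreservation-2 libraries stood above the other 6. Against cryopreservation-1, Mrpl22 rose by 1.78 on the log2 scale (SE 0.38, adjusted p = 0.0394) and Mrpl23 by 2.18 (SE 0.37, adjusted p = 0.0209), while Mrpl4, at 1.56, did not pass (adjusted p = 0.0826). Mrpl23 has a named processed pseudogene with which reads could be shared.

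Mrpl9, counterpart of a bacterial protein at the base of the L1 stalk, had 856, 504 and 509 CPM in cryopreservation-2, 283, 311 and 316 in cryopreservation-1 and 155, 196 and 282 in fresh. The groups did not overlap, though the highest fresh library lay just below the lowest cryopreservation-1 library. Mrpl9 rose against fresh by a log2 fold change of 1.56 (SE 0.28, edgeR adjusted p = 0.0149), and cryopreservation-2 replicate 1 was far above the other replicates of its group. Its exons share 157 bases with Oaz3 on the opposite strand, a gene whose own log2 fold change was -0.48 (adjusted p = 0.852). Mrpl27, counterpart of a bacterial protein next to the peptidyl transferase centre, had 10.2, 11.2 and 9.55 CPM in cryopreservation-2, 1.18, 2.17 and 0.693 in cryopreservation-1 and 0.248, 2.27 and 0.451 in fresh. The fresh libraries differed widely, from 20 to 158 counts, and the log2 fold change of 3.38 had a large error (SE 0.78, adjusted p = 0.0361). Mrpl27 shares 75 exon bases with Eme1 on the opposite strand, whose log2 fold change was 0.03 (adjusted p = 0.979). Mrpl55, counterpart of bacterial L31, had 1.97, 2.72 and 2.13 CPM in cryopreservation-2, 1.22, 2.68 and 1.16 in cryopreservation-1 and 0.236, 0.316 and 0.0564 in fresh. The fresh libraries, at 19, 22 and 4 counts, were below all others, and both frozen groups overlapped with each other (log2 fold change of cryopreservation-2 against fresh 3.47, SE 0.73, adjusted p = 0.027).

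Mrpl30, counterpart of bacterial L30, had 6.23, 7.10 and 7.60 CPM in cryopreservation-2, 4.19, 2.58 and 2.71 in cryopreservation-1 and 1.53, 2.47 and 1.92 in fresh (log2 fold change against fresh 1.82, SE 0.36, edgeR adjusted p = 0.0225). Mrpl57, specific to mitochondria, had 19.4, 18.7 and 18.0 CPM in cryopreservation-2, 11, 11.6 and 5.56 in cryopreservation-1 and 5.12, 7.64 and 6.5 in fresh (1.54, SE 0.32, adjusted p = 0.0257). In Mrpl30 the 3 groups were ordered without overlap, and in Mrpl57 cryopreservation-1 and fresh overlapped. Mrpl58, also known as Ict1, is a peptidyl-tRNA hydrolase that releases peptides from stalled mitochondrial ribosomes and is built into the large subunit. It had 10.1, 11.6 and 8.62 CPM in cryopreservation-2, 2.95, 1.84 and 2.21 in cryopreservation-1 and 3.03, 4.56 and 4.78 in fresh. Of the genes that rose in cryopreservation-2 it was the one whose cryopreservation-1 libraries all lay below fresh. The log2 fold change was 2.11 against cryopreservation-1 (SE 0.34, adjusted p = 0.0162) and 1.29 against fresh (SE 0.33, adjusted p = 0.0499), the call nearest to the threshold, which was lost in each of the 9 fits that left out a library.

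**Figure D3:**
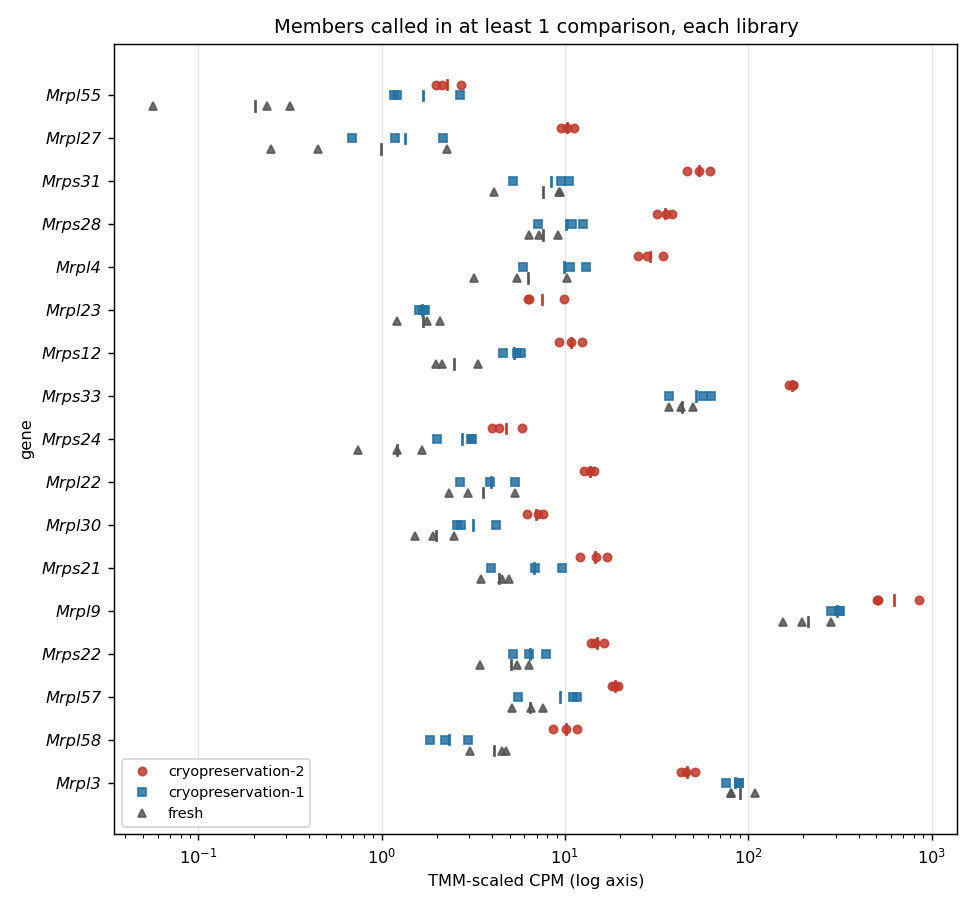
TMM-scaled CPM (horizontal log axis) of the 17 members called in at least 1 comparison (rows), with each library as a point and the group mean as a vertical tick, for cryopreservation-2 (red circles), cryopreservation-1 (blue squares) and fresh (grey triangles). Red circles lie to the right of all grey triangles in 16 rows, such as Mrps31 at 46.2 to 61.8 against 4.12 to 9.35, and to the left in the Mrpl3 row.

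The gene that fell, Mrpl3, encodes the counterpart of bacterial L3, which reaches towards the peptidyl transferase centre. It had 42.9, 45.7 and 51.2 CPM in cryopreservation-2, 88.9, 75.5 and 89.5 in cryopreservation-1 and 81, 109 and 80.4 in fresh. The cryopreservation-2 libraries were below all others, and the other groups overlapped. The log2 fold change was -0.95 against fresh (SE 0.20, edgeR adjusted p = 0.0254) and -0.86 against cryopreservation-1 (SE 0.20, adjusted p = 0.0484). Its exons share 272 bases with the annotated genes Gm38077 and Gm47106. The call against fresh was lost in 7 of the 9 fits without a library, at log2 fold changes of -0.79 to -1.03, and kept without cryopreservation-1 replicate 2 or 3.

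Mrpl3 is 1 of the 5 members with the largest decreases in cryopreservation-2 among those with a mean of at least 5 FPKM in a group, and the other 4 did not pass the test. Mrps2, counterpart of bacterial S2, had 10.4, 18.3 and 10.7 CPM in cryopreservation-2, 26.7, 23.9 and 20.9 in cryopreservation-1 and 27.2, 34.8 and 21.3 in fresh (log2 fold change against fresh -1.08, SE 0.29, edgeR adjusted p = 0.0621). Mrpl10 and Mrpl12 form the flexible stalk that recruits translation factors. Mrpl10 had 26.1, 39.9 and 35.5 CPM in cryopreservation-2, 59.7, 52.7 and 56.8 in cryopreservation-1 and 59.3, 52.7 and 51.1 in fresh (-0.68, SE 0.21, adjusted p = 0.0876). Mrpl12 had 0.767, 6.48 and 6.23 CPM in cryopreservation-2, 12.0, 7.35 and 3.82 in cryopreservation-1 and 10.3, 14.2 and 3.79 in fresh, with groups that overlapped (-1.07, SE 0.73, adjusted p = 0.448). Mrpl45, which lies near the tunnel mouth and is known to attach the ribosome to the inner membrane, had 83.8, 86.0 and 93.7 CPM in cryopreservation-2, 119, 145 and 110 in cryopreservation-1 and 100, 192 and 120 in fresh (-0.64, SE 0.25, adjusted p = 0.163). In Mrps2, Mrpl10 and Mrpl45, as in Mrpl3, all cryopreservation-2 libraries were below all fresh libraries.

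Of the most abundant members, 3 others were also not called. Mrpl18 had 151, 165 and 195 CPM in cryopreservation-2, 161, 169 and 115 in cryopreservation-1 and 145, 200 and 109 in fresh, with a log2 fold change against fresh of 0.17 (SE 0.25, edgeR adjusted p = 0.772). Mrpl24, counterpart of bacterial L24, had 110, 81.2 and 103 CPM in cryopreservation-2, 94.9, 115 and 96.2 in cryopreservation-1 and 108, 156 and 95.2 in fresh (-0.28, SE 0.23, adjusted p = 0.533). Mrps36 had 69.6, 88.2 and 92.3 CPM in cryopreservation-2, 63.2, 69.7 and 45.0 in cryopreservation-1 and 52.5, 88.5 and 43.5 in fresh (0.44, SE 0.29, adjusted p = 0.426). All groups overlapped in these 3 genes. Mrpl18 shares 141 exon bases with Tcp1 and Mrpl24 594 with Rrnad1, both on the opposite strand, and Mrps36 has 3 named processed pseudogenes. Over the 61 members not called in this comparison, log2 fold changes lay between -1.18 and 2.60 with a median of 0.54, and 48 were positive.

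**Figure D4:**
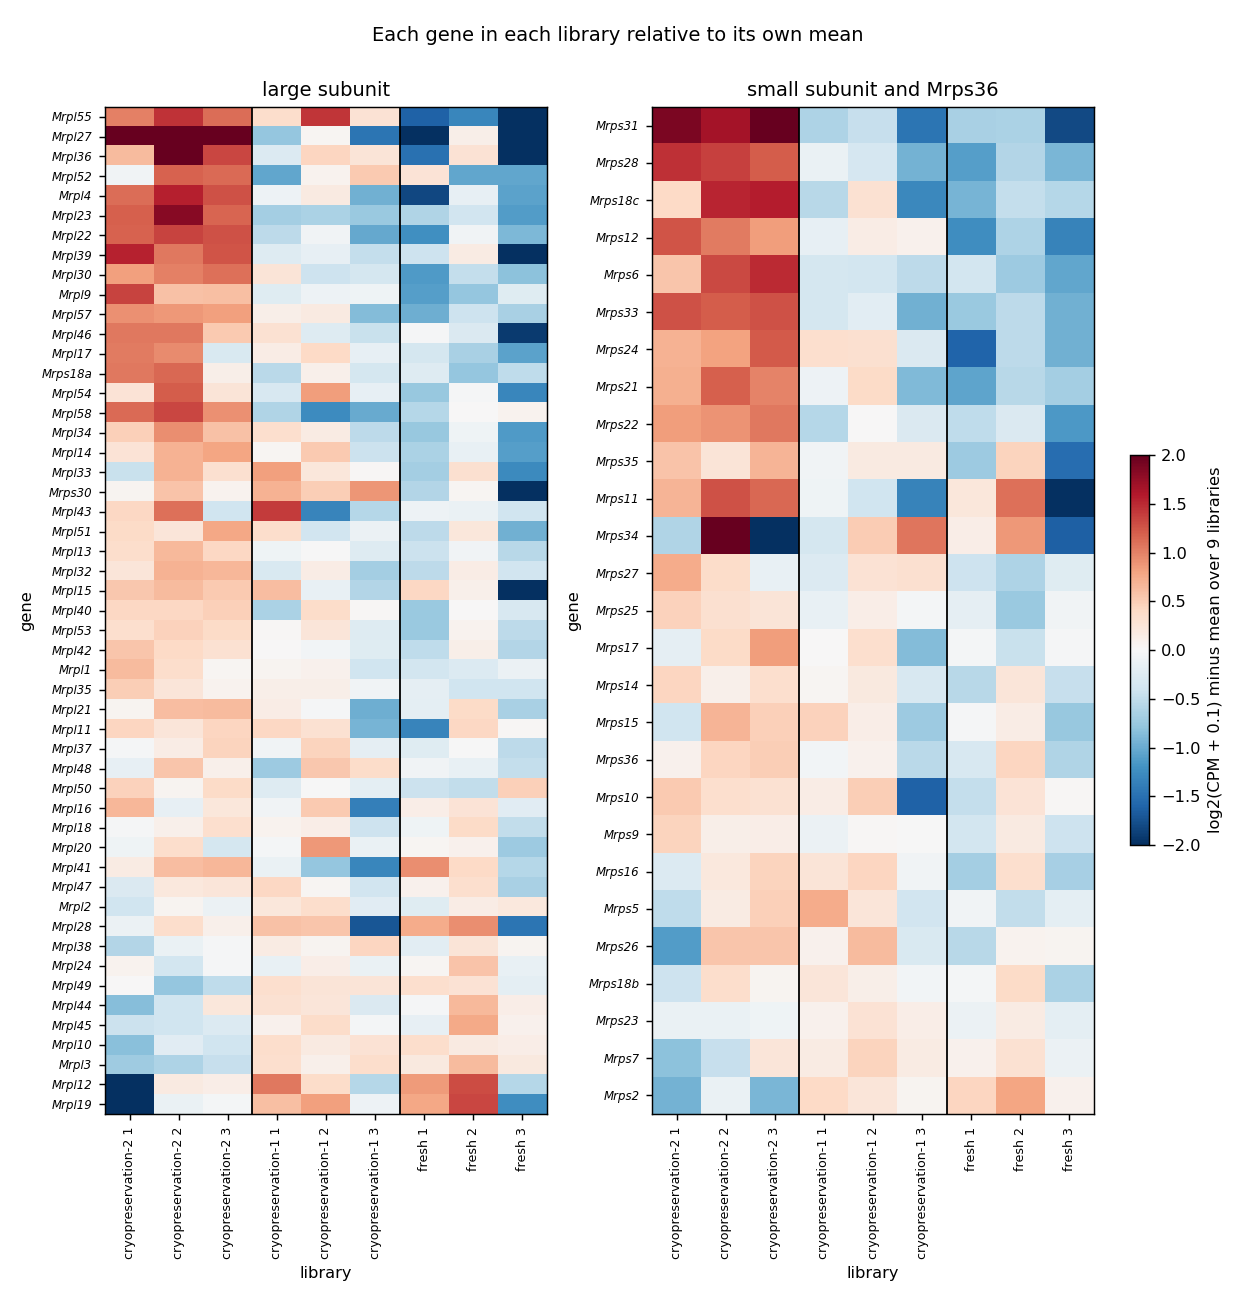
Log2 of CPM plus 0.1 in each library (columns) minus the gene's mean over the 9 libraries (colour, limited to -2 to 2) for the large subunit (left panel) and for the small subunit with Mrps36 (right panel), genes ordered by their log2 fold change of cryopreservation-2 against fresh. Red in the first 3 columns of the upper rows marks genes such as Mrps31 and Mrpl27 that were high in every cryopreservation-2 library, and the bottom rows hold Mrpl3, Mrpl10 and Mrps2.

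No mitoribosomal gene passed the test between cryopreservation-1 and fresh oocytes, and neither did any other of the 17545 genes (0% called by edgeR). At an unadjusted p under 0.05 there were 5 members (6.41%), beside 828 genes in all (4.72%). The median log2 fold change was 0.27 over the members and 0.02 over all genes, and 59 members (75.6%) had a positive value, against 52.1% of all genes. With a correction for gene length these medians were 0.08 and -0.12. In 8 members all cryopreservation-1 libraries were above all fresh libraries (10.3%, against 6.37% of all genes) and in 1, Mrpl58, all were below (1.28%, against 3.72%). The members with the smallest p were Mrpl55, at a log2 fold change of 3.04 (SE 0.72), Mrps12, at 1.09 (SE 0.31), and Mrps24, at 1.18 (SE 0.43). In edgeR's fit across all genes their unadjusted p-values were 0.00162, 0.0057 and 0.0198, and the adjusted p was 1 for each. The other 2 with an unadjusted p under 0.05, named after their values were seen, were Mrpl58 at -0.82 and Mrps30 at 1.41. DESeq2 called 1 member, Mrpl55 (adjusted p = 0.0139), among 43 genes, and limma on log2(FPKM + 1) called none. Both frozen groups were compared with the same fresh libraries.

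Between the freezing methods, 6 members rose in cryopreservation-2 relative to cryopreservation-1 and 1 fell. Those higher were Mrps33, Mrps31, Mrps28, Mrpl58, Mrpl23 and Mrpl22, and the one lower was Mrpl3. The 7 are 8.97% of the members, beside 2.75% of all genes tested, with 7.69% called higher beside 1.5% and 1.28% called lower beside 1.25%. The median log2 fold change was 0.44 over the members and -0.07 over all genes, and 57 members (73.1%) had a positive value, against 46.8% of all genes. In 33 members (42.3%) all cryopreservation-2 libraries were above all cryopreservation-1 libraries, against 13.8% of all genes, and in 7 (8.97%) all were below, against 15.2%. None of the 7 was called in all 9 fits that left out a library. Without cryopreservation-1 replicate 1 or replicate 3 none of the 7 was called, among 15 and 16 genes called in all, against 483 with all libraries. Without cryopreservation-1 replicate 2 there were 2 members among 103 genes, and without cryopreservation-2 replicate 2 or 3 there were 4, among 174 and 96 genes. With DESeq2's size factors in edgeR the split was 6 higher and 0 lower, and with a correction for gene length 8 higher and 0 lower.

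Mitoribosomal genes are short. Their longest annotated protein-coding transcripts had a median length of 1327.5 bases, against 2548 over all genes tested. Genes without a protein-coding transcript took their longest transcript of any kind. In cryopreservation-2 against fresh, shorter genes had higher fold changes over the whole table (Spearman's rho -0.215 over 17520 genes with a length). The 26 members with transcripts of 463 to 1064 bases had a median log2 fold change of 1.34 with 8 called higher, and all 2420 tested genes in that length range had a median of 0.40 with 6.24% called higher. The 26 of middle length had a median of 0.44 with 6 called higher, beside 0.19 and 5.42% for all genes of that length. In the 26 longest the median was 0.55 with 2 called higher and 1 lower, beside -0.18 and 2.08% called higher. The members' median was above that of all tested genes of the same range in each of the 3 ranges, which are broad. The part of length in the members' shift was not tested. Mrps28, Mrps12 and Mrpl27 are among the shortest members, and Mrps33 and Mrps31 among those of middle length. Across the 78 members, the fold change had a Pearson r of -0.36 and a Spearman rho of -0.37 with log2 length, a description over genes of the same libraries. A correction for gene length in the fit used the length implied by the deposited counts and FPKM, not the transcript length. With it, 14 members were called higher and 2 lower (20.5%), beside 4.5% of all genes in either direction. Mrpl3 (adjusted p = 0.0548), Mrpl9 (adjusted p = 0.0571) and Mrpl58 (adjusted p = 0.0699) were then no longer called, and Mrps2 (adjusted p = 0.0297) and Mrpl10 (adjusted p = 0.0444) were called lower.

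**Figure D5:**
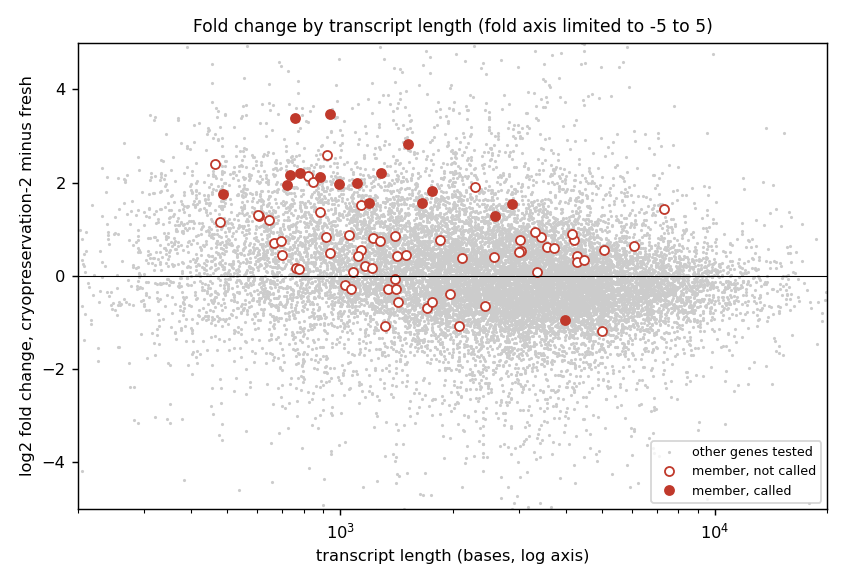
Log2 fold change of cryopreservation-2 minus fresh (vertical axis, limited to -5 to 5) against transcript length (horizontal log axis) for the members called (filled red), members not called (open red) and the other genes tested (grey). The length is that of the longest protein-coding transcript, or of the longest of any kind where a gene has none. Members of 463 to 1064 bases have a median of 1.34, and the called gene with the longest transcript, Mrpl3, lies below 0.

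In 4 lists of the rest of the mitochondrial translation machinery, 3 of 62 tested genes (4.84%) were called in cryopreservation-2 against fresh, near the 5.38% of all genes. Of 5 mitoribosomal proteins whose genes do not carry the Mrp name, Aurkaip1 rose, with 15.8, 17.4 and 15.0 CPM in cryopreservation-2, 5.78, 9.995 and 7.05 in cryopreservation-1 and 1.74, 3.44 and 3.03 in fresh. Its groups did not overlap, and the log2 fold change against fresh was 2.55 (SE 0.35, edgeR adjusted p = 0.00611). Dap3, Chchd1, Ptcd3 and Gadd45gip1 were not called, at log2 fold changes of 0.35, 1.25, -0.35 and 0.38. Among 23 tested genes for mitoribosome assembly and rRNA modification, 2 rose and none fell against fresh, with a median of -0.13. Ddx28, an RNA helicase of large-subunit assembly, had 70.6, 57.1 and 42.0 CPM in cryopreservation-2, 21.8, 19.5 and 27.6 in cryopreservation-1 and 12.2, 16.0 and 16.9 in fresh. It rose against fresh (1.91, SE 0.27, adjusted p = 0.00669) and against cryopreservation-1 (1.3, SE 0.26, adjusted p = 0.0321). Mtg1, a GTPase of large-subunit assembly, had 16.8, 24.1 and 24.3 CPM in cryopreservation-2, 8.99, 3.64 and 4.84 in cryopreservation-1 and 3.81, 5.57 and 1.9 in fresh (2.53 against fresh, SE 0.46, adjusted p = 0.0169).

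None of the 16 mitochondrial translation factors (median -0.24) and none of the 18 tested mitochondrial aminoacyl-tRNA synthetases (median 0.05) was called in cryopreservation-2 against fresh. Of 11 genes for maintenance and transcription of mitochondrial DNA, Polrmt, the mitochondrial RNA polymerase, rose. It had 4.29, 8.79 and 7.83 CPM in cryopreservation-2, 3.20, 1.69 and 1.81 in cryopreservation-1 and 1.99, 1.81 and 0.451 in fresh (log2 fold change against fresh 2.30, SE 0.58, edgeR adjusted p = 0.0482). The 13 protein-coding transcripts of the mitochondrial genome, which this ribosome translates, took 0.308 to 0.644% of the counts in cryopreservation-2, 0.391 to 0.459% in cryopreservation-1 and 0.508 to 0.664% in fresh. None of the 13 was called, with a median log2 fold change of -0.41 in cryopreservation-2 and -0.52 in cryopreservation-1, each against fresh. Against fresh, cryopreservation-1 had no call in any of these lists, and against cryopreservation-1, cryopreservation-2 had Ddx28 alone. The calls in these lists, and that of Myh11 above, were not followed through fits that left out a library, so their stability is not known.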

How the data were processed

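Poly(A) RNA libraries of mouse oocytes were sequenced, 3 per group. Per the submitters' processing notes, cutadapt 1.9, HISAT2 2.0.4, StringTie 1.3.4d and mouse build GRCm38 were used. The tool that made the counts, its strand setting and its annotation are not stated in those notes or the labels, so reads of overlapping genes on either strand cannot be told apart. Per the file headers, the authors deposited raw read counts and FPKM values for 26358 genes, and every value column matched 1 sample. The deposited counts are whole and not normalized. By a check on the table, the deposited FPKM is the count divided by a gene length and by a factor per library.

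Counts were filtered with filterByExpr (minimum count 10, minimum total 15), scaled by TMM and fitted in edgeR 4.0.16 (R 4.3.3) with all 9 libraries and 1 coefficient per group. The quasi-likelihood test gave log2 fold changes and p-values adjusted by Benjamini and Hochberg within each comparison, with calls at an adjusted p under 0.05. Standard errors (SE) were back-calculated as the absolute log2 fold change divided by the square root of the F statistic of that test, and are approximate. The common biological coefficient of variation was 0.662. The script was tested on simulated data. A count of 0 allows up to 3 counts, which is 0.0371 to 0.0608 CPM, and covers counting error only. Counts of replicates always differed by more than sampling noise. The labels do not say whether replicate numbers pair the samples, and no block was used in the main fit. Same-numbered libraries deviated together with correlations of -0.355 to 0.353. Between cryopreservation-1 and fresh these were 0.203, 0.291 and 0.353, and differently numbered pairs of these groups reached at most 0.0658. Same-numbered pairs with a cryopreservation-2 library lay between -0.355 and 0.126.

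Named with values are members called in any comparison, the 5 highest by FPKM in fresh, the 5 largest changes each way of cryopreservation-2 against fresh among members of at least 5 FPKM, the 3 smallest p-values of cryopreservation-1 against fresh, and called genes of the other lists. Members, lists and rule were chosen with earlier results of these data known. Subunits and roles are textbook knowledge. Transcript lengths and exon overlaps come from GENCODE transcripts of the build. The length correction used the gene length implied by the deposited counts and FPKM. Alternatives were DESeq2 1.42.0, limma 3.58.1 on log2(FPKM + 1) and log2(FPKM + 0.1), other scaling and filters, a replicate block, a length correction, fits of 2 groups and leaving out each library.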

Additional observations from a re-analysis of the deposited data

How the results depend on the processing

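Direction was stable where counts were not. The members' median log2 fold change stayed positive in all 3 comparisons under the 19 alternatives, and no named member's call changed sign. Called genes of the other lists were not followed through these alternatives. Members called in cryopreservation-2 against fresh numbered 31 by DESeq2 (39.7%, beside 13.9% of all genes), 30 and 26 by limma with 1 and 0.1 added to FPKM (38.5 and 33.3%, beside 10.2 and 9.43%), 5 to 16 when 1 library was left out, and 4 without the library with most genes at 0 in each group, the alternative added after seeing the data. Against cryopreservation-1 the counts were 19, 17 and 14 (24.4, 21.8 and 17.9%, beside 10.6, 6.7 and 5.76%), then 0 to 8, and 0 with 0 of all genes called. Against fresh, cryopreservation-1 had 1 call by DESeq2 and 0 under the others. The median of cryopreservation-2 against fresh was 0.68 with the length correction, 0.82 with only these 2 groups, 0.47 by limma with 1 added, and 0.59 to 0.94 without 1 library. Against cryopreservation-1 it was 0.49 with DESeq2's size factors, 0.50 with a mean of at least 50 counts, 0.56 with the length correction, 0.32 and 0.52 by limma, 0.49 by DESeq2 and 0.30 to 0.53 without 1 library. The cause of these shifts was not tested. The length correction moved the median of all genes to -0.12 in cryopreservation-1 against fresh, with the members at 0.08, and to 0.05 between the freezing methods.

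The mean share of the members in cryopreservation-2 was 0.268% of the TMM-scaled library and 0.383% of summed FPKM. The share of summed FPKM was 0.247% in cryopreservation-1 and 0.218% in fresh. With a replicate block, 13 members were called in cryopreservation-2 against fresh (16.7%, beside 2.85% of all genes) and 6 against cryopreservation-1 (7.69%, beside 1.31%), and none in cryopreservation-1 against fresh. The block ended the calls of Mrpl3, Mrpl30, Mrpl58 and Mrps24 against fresh, at adjusted p-values of 0.0557 to 0.105, and of Mrpl3 against cryopreservation-1 (0.0993), all by edgeR. Of the 9 libraries, 3 correlated best with their own number. Mrps33, Mrps28 and Mrps31 were called against fresh under every alternative. Low counts limit Mrpl55, with 19, 22 and 4 in fresh, and Mrpl27, with 20, 158 and 32.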

Other observations

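A few members varied widely between libraries of 1 group, and were chosen here after their values were seen. Mrps34 had 10, 100 and 0 counts in cryopreservation-2, 19, 41 and 51 in cryopreservation-1 and 31, 49 and 3 in fresh. Mrpl36 had 80, 264 and 154 counts in cryopreservation-2, 60, 102 and 72 in cryopreservation-1 and 22, 83 and 0 in fresh. Mrpl12 had 40, 355 and 374 counts in cryopreservation-2, 923, 570 and 237 in cryopreservation-1 and 831, 988 and 269 in fresh. None of the 3 was called in any comparison. In each group the library with the most genes at 0 was cryopreservation-2 replicate 1 with 8667 genes, cryopreservation-1 replicate 3 with 8421 and fresh replicate 3 with 9108. Mrpl12 was at its lowest in these libraries in every group.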
